A study of Mus musculus with 19 samples.

Results

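Astrocytes are the glial cells that clear transmitter from synapses, take up water and potassium and feed neurons, and 10 genes that carry this work were followed through 19 RNA sequencing libraries from the CA1 region of the mouse hippocampus. The genes were chosen by name for their function, with earlier results of these data known. The set holds the glutamate transporters Slc1a2 and Slc1a3, the glutamine synthetase gene Glul, the GABA transporter gene Slc6a11 and the water channel gene Aqp4. It also holds the gap junction genes Gja1 and Gjb6, the folate enzyme gene Aldh1l1, the glycolytic gene Aldoc and the transcription factor gene Sox9. These genes are 10 of 48709 genes counted and of 19286 genes with enough reads to be tested, and all 10 were tested. All mice were male C57B/6J wild-type animals and single housed. The study trained mice of the same ages and treatments in a water maze. Its main text does not say whether the sequenced mice were among them. The study asked whether blocking 3 microRNAs in the hippocampus of aged mice alters memory and gene expression. Young mice of 3 months (young, n = 6) and mice of 16.5 months (old control, n = 6) received control oligonucleotides, and further mice of 16.5 months received inhibitors of miR-148a-3p, miR-146a-5p and miR-181a-5p (old anti-miR-mix, n = 7). All groups received them in lipid nanoparticles, injected on both sides of the dorsal hippocampus. No inhibitor-treated young group was analysed here. Titles of young and old control libraries also carry the words anti-miR-mix as a heading. Their group was read from their descriptions, and the oligonucleotide they received from the study's methods.

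In the healthy brain, astrocytes surround synapses with fine processes that hold the transporters for glutamate and GABA, turn glutamate into glutamine and return it to neurons. Their endfeet on blood vessels are rich in aquaporin 4, and the connexins Cx43 and Cx30, encoded by Gja1 and Gjb6, join neighbouring astrocytes into a network. Injury and inflammation can move astrocytes into a reactive state, marked by Gfap and other genes, which is measured separately from the homeostatic genes described here.

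The treatment was directed at 3 microRNAs, whose mature sequences are given to show what was blocked. The seed, bases 2 to 8, is in capitals, and the sequences are those of RefSeq (GRCm38.p6).
miR-181a-5p: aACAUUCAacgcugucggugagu
miR-146a-5p: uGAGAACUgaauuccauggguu
miR-148a-3p: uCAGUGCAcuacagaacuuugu
The inhibitors listed by the study are given beside the negative control oligonucleotide of its list, with the bases that face the seed in capitals.
inhibitor of miR-181a-5p: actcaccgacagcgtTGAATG
inhibitor of miR-146a-5p: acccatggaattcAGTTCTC
inhibitor of miR-148a-3p: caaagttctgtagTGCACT
negative control: taacacgtctatacgccca
The inhibitor of miR-146a-5p faces all 7 seed bases and each of the other inhibitors faces 6 of them. The negative control matches none of the 3 seeds in this way. The seeds of the 3 microRNAs differ from each other, so that their matches in messenger RNAs were counted separately.

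Depth ran from 26653511 to 38908947 assigned reads per library, and the lowest count of any of the 10 genes in any library was 598 reads (Sox9), so that depth did not limit their detection. Old control replicates 5 and 6 resembled each other more than any other pair of one group, with a chi-square per degree of freedom of 2.18 over 12780 genes against 6.1 for the next pair, where counting noise alone gives about 1. They carry separate labels and were kept as 2 libraries, and each comparison was repeated with both counted as 1. The deposited log2 values also carry a whole number from 1 to 4 for each library, called processing number here, whose origin is not described. Levels are given as log2 CPM (the reads of a gene per unit of library size scaled by TMM on the log2 scale). In bulk tissue, fewer astrocytes and less RNA per astrocyte cannot be told apart. By the labels each library is a separate sample, and nothing further is stated on repeats, so the p-values measure the spread between these libraries.

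Over the 19 libraries Glul, Slc1a2, Aldoc and Slc1a3 stood above the other 6 genes, with no overlap of their ranges. Per kilobase of exon, Glul had the highest level, with 397.5 ± 30.95 CPM per kilobase (SD, n = 19). Slc1a2 followed with 297.6 ± 17.3 and Aldoc with 249.7 ± 18.36 CPM per kilobase. Glul lay clearly above Slc1a2, and the ranges over libraries, 330.7 to 468.2 and 267.7 to 328.5 CPM per kilobase, did not overlap. Aldoc ranged from 217.3 to 289.3 CPM per kilobase and overlapped Slc1a2. Slc1a3 had 95.73 ± 7.645 CPM per kilobase. Slc6a11 with 31.68 ± 1.72, Aqp4 with 28.27 ± 4.198 and Gja1 with 24.43 ± 2.036 CPM per kilobase formed a lower tier within which neighbouring ranges overlapped. Gjb6 had 20.14 ± 2.312, Aldh1l1 12.01 ± 1.142 and Sox9 7.445 ± 1.233 CPM per kilobase, and the range of Gjb6 overlapped that of Gja1 but not that of Aldh1l1, which in turn lay above that of Sox9. When the longest transcript replaced the union of exons as the length, Gja1 rose to the fifth place with 64.44 CPM per kilobase, Slc1a3 reached 184.3 CPM per kilobase, and the order of the other genes among themselves did not change. Together the 10 genes took 0.7228% of the library size scaled by TMM in the median young library. This share was 0.7572% in the median old control library and 0.7843% in the median old anti-miR-mix library. These shares overlapped between groups, with ranges of 0.6955% to 0.7501%, 0.7303% to 0.8148% and 0.7101% to 0.8591%.

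**Figure D1:**
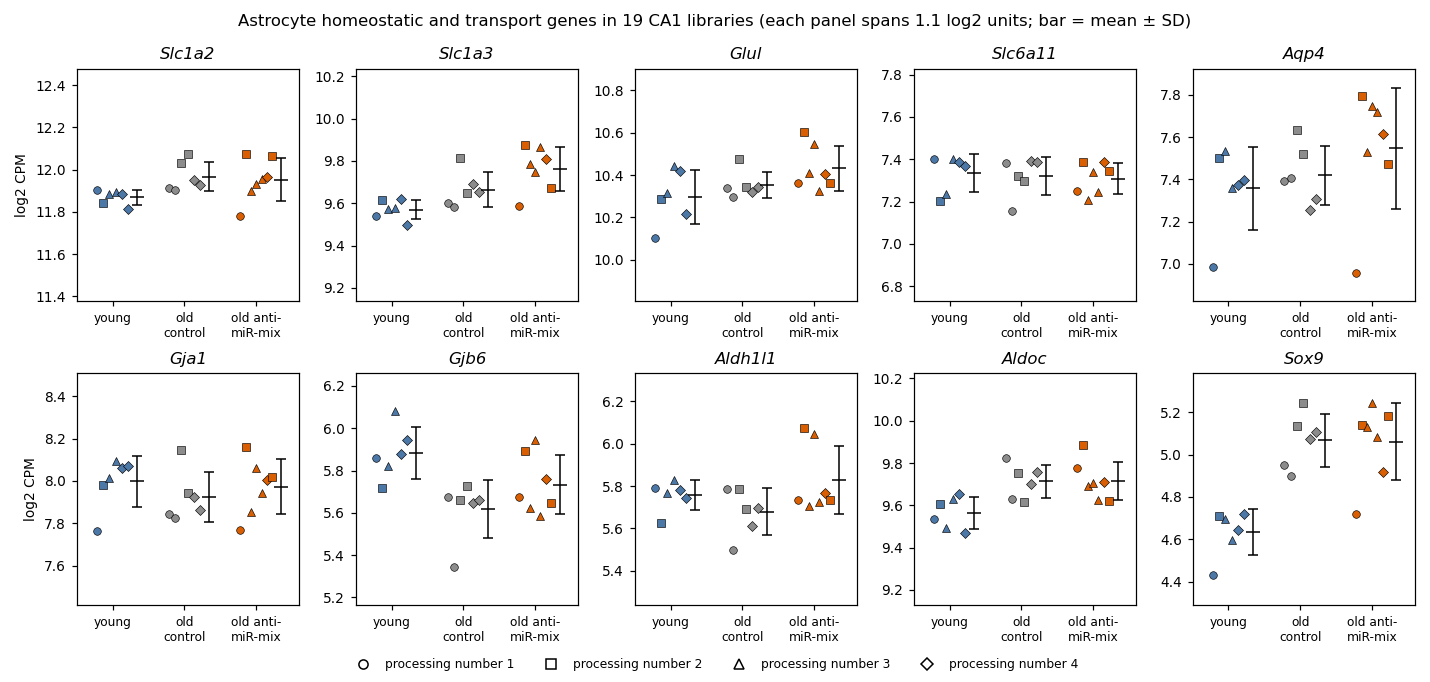
Log2 CPM of each of the 10 genes (vertical axis, 1.1 log2 units in every panel) in the young libraries and the old control and old anti-miR-mix libraries, with 1 symbol per library, its shape giving the processing number and the bar the mean ± SD. Sox9 lies higher in both old groups (medians 5.09 and 5.13) than in the young libraries (median 4.67), Gjb6 lies lower in old control libraries (median 5.66 against 5.87), and for the other 8 genes the groups overlap or lie within 0.01 of doing so.

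Age was examined by setting old control against young libraries. A total of 2 of the 10 genes passed the threshold of 0.05 on the Benjamini-Hochberg adjusted p in edgeR's quasi-likelihood test, where 2.67% of all genes tested passed. Sox9 rose, as did 1.32% of all genes, and Gjb6 fell, as did 1.34%. An unadjusted p under 0.05 was reached by 4 of the 10 genes, beside 18.1% of all genes. For 2 genes, Sox9 and Slc1a2, old control and young values were without overlap, as was the case for 2.54% of all genes. The median log2 fold change of the 10 genes was 0.05 and that of all genes 0.01. The median absolute log2 fold change was 0.09 in the 10 genes and 0.09 in all genes.

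The effect of the inhibitors at the same age is addressed by the contrast of the old groups. None of the 10 genes passed the adjusted threshold in edgeR (0 of 10, beside 0.669% of all genes tested, which were all higher after the treatment), and none passed with DESeq2 (0) or with limma on the deposited log2 values (0). An unadjusted p under 0.05 was reached by 2 genes, Aldh1l1 and Slc1a3, beside 10.5% of all genes. In 0 of the 10 genes the groups were without overlap, beside 0.498% of all genes. The fitted log2 fold changes ranged from -0.01 to 0.15, with a median of 0.06 in the 10 genes and 0.00 in all genes. In the comparison of old anti-miR-mix with young libraries, which shares its libraries with the other comparisons, 2 of the 10 genes passed in edgeR and both were higher, Sox9 and Slc1a3, beside 6.2% of all genes (4.57% higher and 1.63% lower). Here 5 genes had an unadjusted p under 0.05, beside 19.6% of all genes, and 0 genes were without overlap, beside 2.42%. The median log2 fold change was 0.11 in the 10 genes and 0.00 in all genes.

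**Figure D2:**
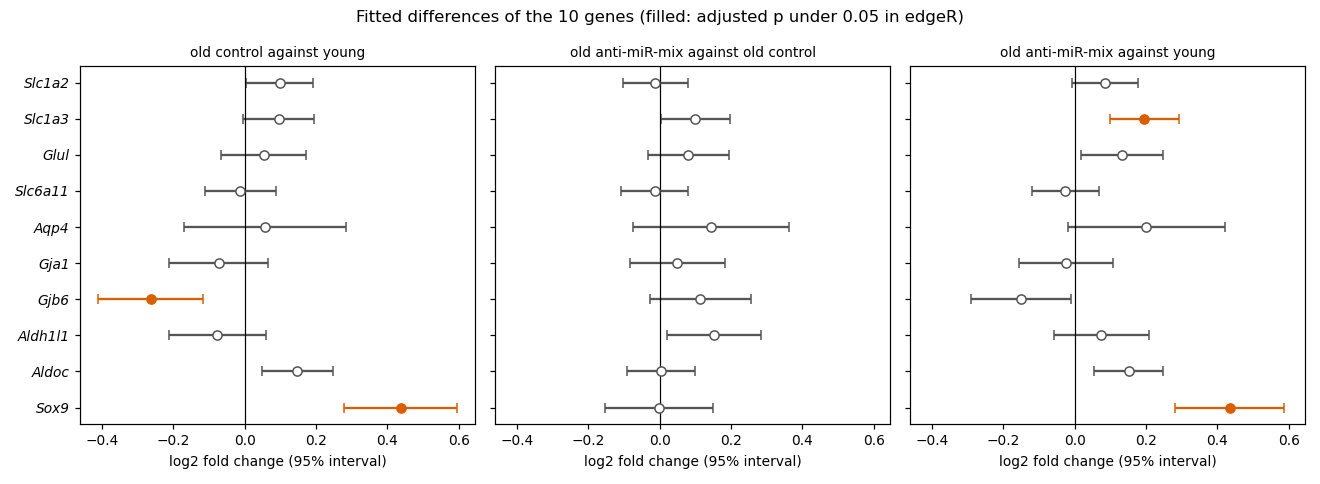
Log2 fold change of each gene with its 95% interval (horizontal axis) in old control against young, old anti-miR-mix against old control and old anti-miR-mix against young libraries, with filled symbols for an adjusted p under 0.05 in edgeR. Sox9 stands at 0.44 and 0.43 against young and at -0.00 between the old groups, Gjb6 is filled only against young in old control (-0.26), and no symbol is filled in the middle panel.

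Glutamate uptake was examined first. Slc1a2 (ENSMUSG00000005089, chromosome 2, 102658659 to 102790784, plus strand of GRCm38) encodes GLT-1, the main glutamate transporter of the forebrain. Its log2 CPM had a lowest value of 11.81, a median of 11.88 and a highest value of 11.90 in young libraries. The corresponding values were 11.91, 11.94 and 12.08 in old control and 11.78, 11.95 and 12.08 in old anti-miR-mix libraries. Every old control library thus lay above every young library, although by less than 0.01 at the closest pair, while the old anti-miR-mix values reached below the young ones. The log2 fold change was 0.10 (SE 0.05) in old control against young, with an adjusted p of 0.259 in edgeR, and did not pass. It was -0.01 between the old groups, with a 95% interval from -0.10 to 0.08 (edgeR, adjusted p = 0.952). In relative terms this interval spans -6.94% to 5.59%, and its sign changed with the processing.

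Slc1a2 is also the member with the most seed matches for the inhibited microRNAs. Its annotated 3′UTR holds 9250 bases, and 99.6% of 15352 annotated 3′UTRs are no longer than that. It contains 2 matches to the seed of miR-181a-5p (TGAATGT), 3 to that of miR-146a-5p (AGTTCTC) and 1 to that of miR-148a-3p (TGCACTG), searched on the transcribed strand over all 7 seed bases. At least 1 match is present in 18.1%, 12.4% and 14.9% of all 3′UTRs, respectively, whose mean length is 1656 bases. The matches are given with their surroundings, seed match in capitals, to show which letters face the seeds of the blocked microRNAs. Positions are on the plus strand of GRCm38.
miR-181a-5p, chr2:102784225-102784246: cgtagatcTGAATGTccataat
miR-181a-5p, chr2:102789490-102789511: aatgggggTGAATGTgtttcct
miR-146a-5p, chr2:102784260-102784281: ttatgtgtAGTTCTCtctctgc
miR-146a-5p, chr2:102786655-102786676: cattagaaAGTTCTCctcttga
miR-146a-5p, chr2:102787569-102787590: gatccctaAGTTCTCtccatgc
miR-148a-3p, chr2:102782075-102782096: cctttttgTGCACTGtctaagt
A match is a description of these letters and does not show that the site is used. Aldoc, described below, holds 1 match to the seed of miR-146a-5p and 1 to that of miR-148a-3p, and Aqp4 holds 1 each for miR-181a-5p and miR-148a-3p. The annotated 3′UTRs of the other 7 genes hold 0 matches to any of the 3 seeds. Only the longest annotated 3′UTR of each gene was searched, and shorter matches were not counted. Slc6a11 is among these 7. The study cloned its 3′UTR for a luciferase assay with mimics of the 3 microRNAs and reports regulation of selected candidate genes in that assay. A target list that the study used, seen here only in part, names Aqp4 and Gja1 for miR-146a-5p, and neither 3′UTR holds a match to its seed in the annotation used here.

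Slc1a3 (ENSMUSG00000005360, chromosome 15, 8634124 to 8710764, minus strand) encodes GLAST, the second astrocytic glutamate transporter. In young libraries its log2 CPM had a lowest value of 9.50, a median of 9.57 and a highest value of 9.62. Old control libraries ranged from 9.58 to 9.81 with a median of 9.65, and old anti-miR-mix libraries from 9.59 to 9.88 with a median of 9.79. The medians of the groups thus increased from young over old control to old anti-miR-mix libraries, and the ranges of neighbouring groups overlapped. Slc1a3 rose in old anti-miR-mix against young libraries with a log2 fold change of 0.20 (SE 0.05, edgeR adjusted p = 0.0119), an increase of 14.5% with a 95% interval from 7.12% to 22.41%. It was 0.10 in old control against young (SE 0.05, edgeR adjusted p = 0.299) and 0.10 between the old groups (SE 0.05, edgeR adjusted p = 0.458), and neither passed. The difference from young libraries passed in all 9 other settings and on leaving out any 1 of the 19 libraries (adjusted p from 0.00176 to 0.0402 in edgeR). Within processing numbers it was higher in 4 of 4, by 0.05 to 0.25 on the log2 scale. The level of Slc1a2 relative to Slc1a3 was 4.97-fold in the median young, 4.9-fold in the median old control and 4.54-fold in the median old anti-miR-mix library, and the ranges of these ratios overlapped.

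Glul (ENSMUSG00000026473, chromosome 1, 153899944 to 153909723, plus strand) encodes glutamine synthetase, the enzyme that turns the glutamate taken up into glutamine. Its log2 CPM ranged from 10.10 to 10.44 in young libraries (median 10.30), from 10.30 to 10.48 in old control libraries (median 10.34) and from 10.32 to 10.60 in old anti-miR-mix libraries (median 10.41). All groups overlapped. The log2 fold changes were 0.05 in old control against young (SE 0.06, edgeR adjusted p = 0.678), 0.08 between the old groups (SE 0.05, edgeR adjusted p = 0.652) and 0.13 in old anti-miR-mix against young libraries (SE 0.05, edgeR adjusted p = 0.172). None passed. The exons of Glul overlap those of Teddm2 on the other strand, which had 93.1 reads on average beside 41776.7 reads of Glul.

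The genes around this cycle were looked at as a list of 23 further genes of glutamate and GABA handling, all of which were tested. The counts of this and the later lists are to be read beside the shares of all genes. In edgeR 2.67% of all genes passed in old control against young libraries and 18.1% had an unadjusted p under 0.05. These shares were 0.669% and 10.5% between the old groups, and 6.2% and 19.6% in old anti-miR-mix against young libraries. DESeq2 called 914, 267 and 1520 of all genes in the same order. In old control against young libraries 0 of them rose and 1 fell in edgeR, 5 had an unadjusted p under 0.05, DESeq2 called 2, and the median log2 fold change was 0.02. The gene that fell was Slc38a2, a transporter that brings glutamine into neurons and other cells, with a log2 fold change of -0.34 (SE 0.05, edgeR adjusted p = 0.00139). Its log2 CPM was between 7.29 and 7.61 in young and between 7.01 and 7.24 in old control libraries, without overlap. It was also lower in old anti-miR-mix than in young libraries (log2 fold change -0.25, SE 0.05, edgeR adjusted p = 0.00411), where the groups overlapped. Both calls of Slc38a2 held in all other settings and on leaving out any 1 library. Slc38a3, which releases glutamine from astrocytes, was higher in old anti-miR-mix than in young libraries (log2 fold change 0.17, SE 0.05, edgeR adjusted p = 0.0237), and this call was lost on leaving out young replicates 4, 5 or 6 or old anti-miR-mix replicates 2, 3 or 4 (adjusted p 0.0502 to 0.0705 in edgeR) and with no filter on low counts (adjusted p = 0.0513). Of the 23 genes, 0 passed between the old groups in edgeR, 2 had an unadjusted p under 0.05 and DESeq2 called 0.

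Slc6a11 (ENSMUSG00000030307, chromosome 6, 114131241 to 114249952, plus strand) encodes GAT-3, the GABA transporter of astrocytes, and is one of the genes that the study chose for measurement by qPCR. The study presents it as a representative gene of a co-expression module found in the RNA sequencing of its aged mice. It reports this module as lower in old control mice and partly restored by the inhibitors. From the qPCR, which was scaled to an internal control gene and not by TMM, it reports that expression was reinstated with the anti-miR-mix. Such a change of Slc6a11 was not seen in the values of these libraries, and the reason was not tested. The module as a whole was not examined here. The log2 CPM of Slc6a11 had a lowest value of 7.20, a median of 7.38 and a highest value of 7.40 in young libraries. It was 7.15, 7.35 and 7.39 in old control and 7.21, 7.34 and 7.39 in old anti-miR-mix libraries. The 3 groups covered nearly the same range. The log2 fold change was -0.01 in old control against young with a 95% interval from -0.11 to 0.09 (edgeR, adjusted p = 0.927), and -0.01 between the old groups with an interval from -0.11 to 0.08 (edgeR, adjusted p = 0.947). It was -0.03 in old anti-miR-mix against young libraries, with an interval from -0.12 to 0.07 (edgeR, adjusted p = 0.823). The 95% intervals of Slc6a11 lay between -8.03% and 6.19% in the 3 comparisons, relative to the median gene. Each interval holds for its own comparison, and a larger change is not excluded. The sign of both comparisons with old control changed with single libraries.

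Aqp4 (ENSMUSG00000024411, chromosome 18, 15389496 to 15410982, minus strand) encodes the water channel of astrocyte endfeet and was the most variable of the genes. Its log2 CPM had a lowest value of 6.98, a median of 7.38 and a highest value of 7.53 in young libraries. It was 7.26, 7.40 and 7.64 in old control and 6.96, 7.61 and 7.79 in old anti-miR-mix libraries. The lowest value of the young libraries was that of replicate 1, and the lowest of the old anti-miR-mix libraries was also that of replicate 1, both of processing number 1. Old control replicates 1 and 2, which also carry processing number 1, had Aqp4 at 7.39 and 7.41, near the median of their group. The coefficient of variation of its CPM was 12.6% in young, 9.84% in old control and 17.47% in old anti-miR-mix libraries, the highest of the 10 genes in each group. Its log2 fold change was 0.06 in old control against young (SE 0.11, edgeR adjusted p = 0.838), 0.14 between the old groups (SE 0.11, edgeR adjusted p = 0.682) and 0.20 in old anti-miR-mix against young libraries (SE 0.11, edgeR adjusted p = 0.305). Without old anti-miR-mix replicate 1 the last difference was 0.28 and passed (edgeR, adjusted p = 0.0388), and over all libraries left out in turn it ran from 0.14 to 0.28 with adjusted p up to 0.539. With the processing number as a factor the difference between the old groups was 0.02 (edgeR, adjusted p = 0.974).

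Among 20 further genes of water, potassium and the endfoot, 1 rose and 1 fell in old control against young libraries in edgeR, beside 1.32% and 1.34% of all genes. An unadjusted p under 0.05 was reached by 7, beside 18.1% of all genes, and the median log2 fold change was -0.04. Trpv4, a calcium channel that senses swelling, rose by a log2 fold change of 0.51 (SE 0.12, edgeR adjusted p = 0.0294), from a median log2 CPM of 0.68 in young to 1.13 in old control libraries. This call was lost without young replicates 1, 3 or 6 or old control replicates 1 or 5 (adjusted p 0.0526 to 0.0728 in edgeR), with no filter on low counts (0.0552) and with the processing number as a factor (0.0798). Slc12a2, a sodium, potassium and chloride cotransporter, fell by 0.25 on the log2 scale (SE 0.06, edgeR adjusted p = 0.0368), and its call was lost without young replicates 3, 4 or 5 or old control replicates 1, 2, 5 or 6 (adjusted p 0.0562 to 0.109 in edgeR), with the processing number as a factor and with old control replicates 5 and 6 as 1 library (0.0571 and 0.0792). DESeq2 called 4 of the 20 genes. Old anti-miR-mix against old control gave 0 calls of this list in edgeR, 4 genes had an unadjusted p under 0.05 and DESeq2 called 0.

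Of these 20 genes, 3 rose and 0 fell in old anti-miR-mix against young libraries in edgeR, beside 4.57% and 1.63% of all genes. Trpv4 was higher by a log2 fold change of 0.64 (SE 0.12, edgeR adjusted p = 0.00152) and its groups did not overlap. Fxyd1, the phospholemman gene that modulates the sodium pump, was higher by 0.39 (SE 0.09, edgeR adjusted p = 0.0135). The calls of Trpv4 and Fxyd1 held in every other setting and without any 1 library. Kcnj16, a subunit of inward rectifier potassium channels, was higher by 0.37 (SE 0.10, edgeR adjusted p = 0.0344). The call of Kcnj16 was lost without young replicates 1, 2, 3 or 4, without old anti-miR-mix replicates 2, 4, 5, 6 or 7 (adjusted p 0.0501 to 0.084 in edgeR) and with only the groups compared in the fit (0.0608).

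The gap junction genes are described next. Gja1 (ENSMUSG00000050953, chromosome 10, 56377330 to 56402513, plus strand) encodes the connexin Cx43. Its log2 CPM ranged from 7.76 to 8.09 in young libraries (median 8.04), from 7.83 to 8.14 in old control libraries (median 7.89) and from 7.77 to 8.16 in old anti-miR-mix libraries (median 8.01). The groups overlapped throughout. The log2 fold changes were -0.07 in old control against young (SE 0.07, edgeR adjusted p = 0.609), 0.05 between the old groups (SE 0.06, edgeR adjusted p = 0.854) and -0.02 in old anti-miR-mix against young libraries (SE 0.06, edgeR adjusted p = 0.892).

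Gjb6 (ENSMUSG00000040055, chromosome 14, 57123303 to 57133611, minus strand) encodes the connexin Cx30, the partner of Cx43 in the astrocyte network. In young libraries its log2 CPM had a lowest value of 5.72, a median of 5.87 and a highest value of 6.08. In old control libraries the values were 5.34, 5.66 and 5.73, so that all of them except the highest, that of replicate 4, lay below the lowest young library. Old anti-miR-mix libraries had 5.59, 5.68 and 5.94 and overlapped both other groups. Gjb6 fell in old control against young libraries with a log2 fold change of -0.26 (SE 0.07, edgeR adjusted p = 0.0468), a difference of -16.71% with a 95% interval from -24.75% to -7.8%. It was lower in old control libraries in 3 of 3 processing numbers that hold both groups, with differences from -0.35 to -0.02 on the log2 scale.

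The call of Gjb6 was near the threshold. It was lost without young replicates 1, 3, 4, 5 or 6, without any of the 6 old control replicates and without old anti-miR-mix replicates 6 or 7 (adjusted p 0.0503 to 0.131 in edgeR), while its log2 fold change stayed between -0.29 and -0.21. It was also lost with no filter on low counts (0.0576), with the processing number as a factor (0.107) or as a linear term (0.0678), with old control replicates 5 and 6 as 1 library (0.0775) and in limma on the deposited log2 values (0.0609). Gjb6 had between the old groups a log2 fold change of 0.11 (SE 0.07, edgeR adjusted p = 0.587), and in old anti-miR-mix against young libraries one of -0.15 (SE 0.07, edgeR adjusted p = 0.22), and neither passed. The ratio of Gja1 to Gjb6 in CPM was 4.46 in the median young, 4.76 in the median old control and 4.74 in the median old anti-miR-mix library, with overlapping ranges.

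The other connexin and pannexin genes, including Tjp1, were 11 genes. In old control against young libraries 0 of them passed in edgeR, 5 had an unadjusted p under 0.05 (beside 18.1% of all genes) and DESeq2 called 1. The fitted log2 fold changes ran from -0.56 to -0.04 with a median of -0.18. Between the old groups 0 passed in edgeR, 2 had an unadjusted p under 0.05, DESeq2 called 1, and the median was 0.06. In old anti-miR-mix against young libraries Gjc1, which encodes Cx45, was lower (log2 fold change -0.34, SE 0.09, edgeR adjusted p = 0.0313) and Gjb1, which encodes Cx32 of oligodendrocytes, was higher by 0.31 (SE 0.09, edgeR adjusted p = 0.0493). The call of Gjc1 was lost without young replicates 2, 4 or 6, without old anti-miR-mix replicates 2, 3, 5, 6 or 7 (adjusted p 0.0537 to 0.0908 in edgeR) and in 4 other settings, the replicate block among them (adjusted p = 0.0887 with the block). That of Gjb1 was lost without young replicates 1, 2, 3 or 6, any of the 6 old control replicates or old anti-miR-mix replicates 1, 2, 3, 4 or 7 (adjusted p 0.0506 to 0.117 in edgeR) and in 6 other settings.

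Aldh1l1 (ENSMUSG00000030088, chromosome 6, 90486427 to 90600203, plus strand) encodes an enzyme of folate metabolism and is widely used as a marker of astrocytes. Its log2 CPM ranged from 5.63 to 5.83 in young (median 5.77), from 5.50 to 5.79 in old control (median 5.69) and from 5.71 to 6.07 in old anti-miR-mix libraries (median 5.73). The old groups overlapped. Old anti-miR-mix replicates 2 and 4 held the highest values (6.07 and 6.05). The other old anti-miR-mix libraries had 5.71 to 5.77, within the range of old control. The log2 fold change between the old groups was 0.15 (SE 0.06), with an unadjusted p of 0.0265 and an adjusted p of 0.387 in edgeR. Against young libraries it was -0.08 in old control (SE 0.07, edgeR adjusted p = 0.591) and 0.08 in old anti-miR-mix (SE 0.06, edgeR adjusted p = 0.572). Of 16 further genes of folate metabolism 0 passed in any of the 3 comparisons in edgeR, 2, 3 and 3 had an unadjusted p under 0.05, and DESeq2 called 1, 0 and 0, in the order old control against young, old anti-miR-mix against old control and old anti-miR-mix against young.

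Aldoc (ENSMUSG00000017390, chromosome 11, 78322968 to 78327781, plus strand) encodes aldolase C, the brain form of the glycolytic enzyme. Its log2 CPM had a lowest value of 9.47, a median of 9.57 and a highest value of 9.66 in young libraries. It was 9.62, 9.73 and 9.82 in old control and 9.62, 9.70 and 9.88 in old anti-miR-mix libraries, so that both old groups lay mostly above the young one and overlapped it at their lower end. The log2 fold change was 0.15 in old control against young (SE 0.05, edgeR adjusted p = 0.1) and 0.15 in old anti-miR-mix against young (SE 0.05, edgeR adjusted p = 0.0565), and neither passed in edgeR. Both passed in DESeq2 (adjusted p = 0.0436 and 0.026), and the latter also in limma on the deposited log2 values (0.0491) and in edgeR without young replicate 5 or old anti-miR-mix replicates 5 or 7. The old groups differed by 0.00 with a 95% interval from -0.09 to 0.10 (edgeR, adjusted p = 0.989). The seed matches in its 3′UTR are given for comparison with those of Slc1a2.
miR-146a-5p, chr11:78327099-78327120: agtgggccAGTTCTCctccatc
miR-148a-3p, chr11:78327330-78327351: gacagatgTGCACTGgaaaagt
Of 23 other genes of glycolysis and lactate transport 0 passed in edgeR in each of the 3 comparisons, 3, 1 and 4 had an unadjusted p under 0.05 and DESeq2 called 1, 0 and 2, in the same order as above. Their median log2 fold changes were 0.00, -0.03 and -0.01.

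Sox9 (ENSMUSG00000000567, chromosome 11, 112782224 to 112787760, plus strand) encodes a transcription factor that is needed for the formation of astrocytes and stays on in their nuclei in the adult brain. It had the lowest level of the 10 genes and the largest difference with age. In young libraries its log2 CPM had a lowest value of 4.43, a median of 4.67 and a highest value of 4.72. It was 4.90, 5.09 and 5.24 in old control libraries, all above the young ones. In old anti-miR-mix libraries it was 4.72, 5.13 and 5.24, and 6 of the 7 lay above all young libraries, while replicate 1 lay at their upper end.

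Sox9 rose in old control against young libraries with a log2 fold change of 0.44 (SE 0.08, edgeR adjusted p = 0.00322), an increase of 35.39% with a 95% interval from 21.28% to 51.14%. It rose in old anti-miR-mix against young libraries by 0.43 (SE 0.07, edgeR adjusted p = 0.00076), or 35.16%. The log2 fold change between the old groups was -0.00 with a 95% interval from -0.15 to 0.15 (edgeR, adjusted p = 0.997), which spans -10.1% to 10.86%. Both differences from young libraries passed in all 9 other settings. On leaving out any 1 library they stayed between 0.40 and 0.47 in old control (adjusted p from 0.000706 to 0.00954 in edgeR) and between 0.40 and 0.49 in old anti-miR-mix libraries. Within processing numbers Sox9 exceeded the young level in 3 of 3 for old control, by 0.41 to 0.50, and in 4 of 4 for old anti-miR-mix libraries, by 0.24 to 0.51. Between the old groups it was lower in old anti-miR-mix libraries in 3 of 3, with differences from -0.21 to -0.03. In CPM, the level of Sox9 relative to that of Aldh1l1 was 0.39 to 0.53 in young and 0.56 to 0.73 in old control libraries, without overlap, and 0.49 to 0.68 in old anti-miR-mix libraries. Of 13 other transcription factor genes of astrocytes 0 passed in edgeR in each comparison, 2, 1 and 3 had an unadjusted p under 0.05 and DESeq2 called 0, 0 and 1, in the same order as above.

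The 10 genes were set beside 2 further lists of astrocyte genes, one of 24 genes enriched in astrocytes and one of 24 genes of reactive astrocytes. Of the former, 1 rose and 1 fell in old control against young libraries and 1 rose and 1 fell in old anti-miR-mix against young libraries in edgeR. An unadjusted p under 0.05 in edgeR was reached by 10 and 8 of these 24 genes, beside 18.1% and 19.6% of all genes. S100b, a calcium-binding protein gene also expressed in oligodendrocytes, rose in both comparisons by 0.30 (SE 0.04, edgeR adjusted p = 0.000395) and 0.42 (SE 0.04, edgeR adjusted p = 2.15e-06), and these calls held in every other setting. Slc7a10, a transporter of glycine and serine, fell in both by 0.25 and 0.24 on the log2 scale (SE 0.06 and 0.05, edgeR adjusted p = 0.0218 and 0.00848). Its fall in old control libraries was lost without young replicate 4 or old control replicates 3 or 5 (adjusted p 0.0567 to 0.075 in edgeR) and with the processing number as a factor (0.0543), and the other held. Between the old groups 0 of the 24 genes passed in edgeR, 2 had an unadjusted p under 0.05, DESeq2 called 0 and the median log2 fold change was 0.01.

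The reactive list is described next. Of the 24 genes, 9 rose and 0 fell in old anti-miR-mix against young libraries in edgeR, beside 4.57% and 1.63% of all genes, with a median log2 fold change of 0.69 over the list. Osmr, the oncostatin M receptor gene, was higher by 0.93 (SE 0.15, edgeR adjusted p = 0.000374), Ggta1 by 0.88 (SE 0.15, edgeR adjusted p = 0.000772) and Gfap, the intermediate filament of reactive astrocytes, by 0.77 (SE 0.14, edgeR adjusted p = 0.00124). These 3 calls held in every other setting and without any 1 library. In old control against young libraries only Osmr of the 24 passed (log2 fold change 0.63, SE 0.15, edgeR adjusted p = 0.0294), and its call was lost without young replicates 1, 4 or 6 or old control replicates 3 or 4 (adjusted p 0.063 to 0.0737 in edgeR). Between the old groups an unadjusted p under 0.05 in edgeR was reached by 13 of the 24, beside 10.5% of all genes. Of the 24, 0 passed in edgeR (0.669% of all genes), 3 in DESeq2 (267 of all genes) and 1 in limma on the deposited log2 values (144 of all genes). The edgeR count was 4 without old anti-miR-mix replicate 1, 2 without old control replicates 3 or 4, 1 without young replicate 1 or old anti-miR-mix replicate 6 and 0 without any other library, and it was 2 with no filter on low counts and 3 with the replicate block. The median log2 fold change was 0.44, beside 0.06 in the 10 homeostatic genes and 0.00 in all genes. The difference between these lists was not tested.

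**Figure D3:**
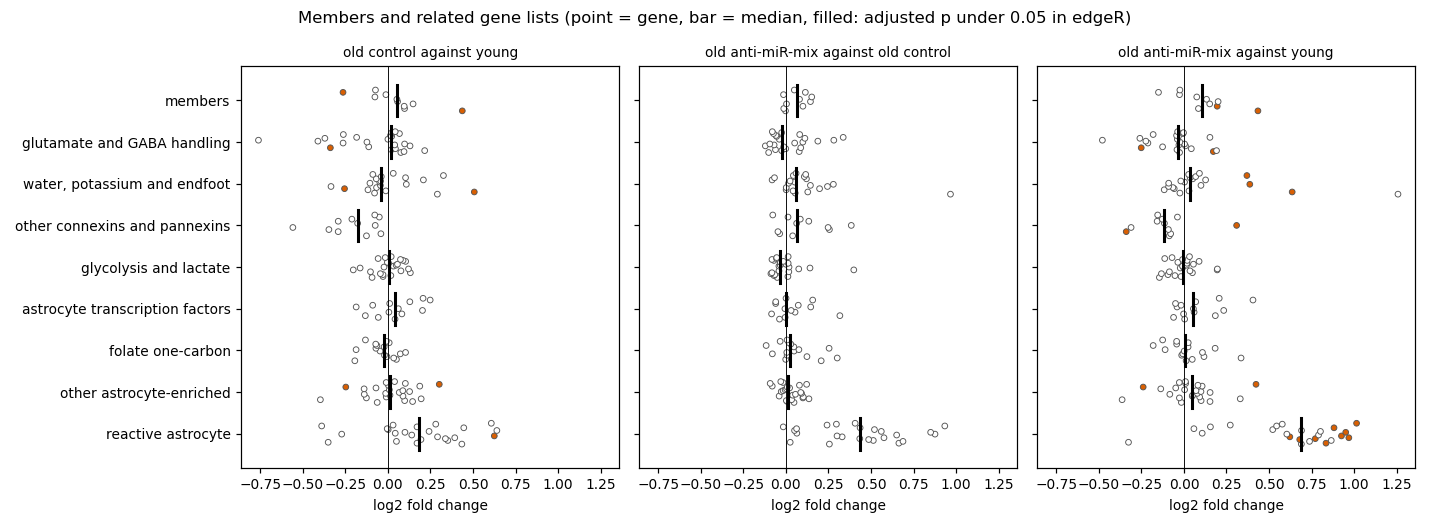
Log2 fold change (horizontal axis) of the 10 genes (members) and of the genes of 8 related lists in the 3 comparisons, with 1 point per gene, a bar at the median of each list and filled points for an adjusted p under 0.05 in edgeR. In old anti-miR-mix against old control libraries the 10 genes lie between -0.01 and 0.15 and the reactive astrocyte list has its median at 0.44, and no point is filled.

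Within the groups, the correlations of the 10 genes with each other were mostly above 0. Pairs of other genes were not measured in this way, so it is not known whether this is particular to the 10 genes. Of the 45 pairs of genes, 41 had a Pearson correlation above 0 across the 19 libraries after the mean of each group was removed, with a median of 0.41 and a range from -0.20 to 0.84. All points share their libraries, and after the processing number was also removed the median was 0.29 with 38 pairs above 0. The closest pair was Gjb6 and Aldh1l1 (0.84), followed by Glul and Gja1 (0.76), and the lowest value was that of Aldoc and Sox9 (-0.20). Gja1 had the highest mean correlation with the other 9 genes (0.55) and Aldoc the lowest (0.24). After removal of the processing number the highest was that of Aldh1l1 (0.52) and the lowest that of Sox9 (0.02, from 0.36 before), Aldoc had 0.32, and the lowest pair was Slc1a3 and Sox9 (-0.32).

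Single libraries stood at the edge of their group in many of the genes at once. Old control replicate 2 had the lowest value of its group in 8 of the 10 genes and old anti-miR-mix replicate 2 the highest of its group in 8. Old anti-miR-mix replicate 1 was the lowest of its group in 5 genes, namely Slc1a2, Slc1a3, Aqp4, Gja1 and Sox9. Young replicate 1 was the lowest of its group in 4 genes (Glul, Aqp4, Gja1 and Sox9) and the highest in 2 (Slc1a2 and Slc6a11). Both of these libraries and old control replicate 2 carry processing number 1. Old control replicate 1 carries it too and was the highest of its group in Aldh1l1 and Aldoc. The part of the processing number in these positions was not tested. In old control replicate 2 the summed CPM of 8 neuronal markers was 9473, the highest of the 6 old control libraries, and in old anti-miR-mix replicate 2 it was 8171, the sixth of 7. The sum of 9 oligodendrocyte markers in old anti-miR-mix replicate 2 was 9790 CPM, the highest of its group. The part of these cell type signals in the values of the 10 genes was not tested. Without old control replicate 2 or old anti-miR-mix replicate 2, 0 of the 10 genes passed between the old groups, as with all libraries.

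**Figure D4:**
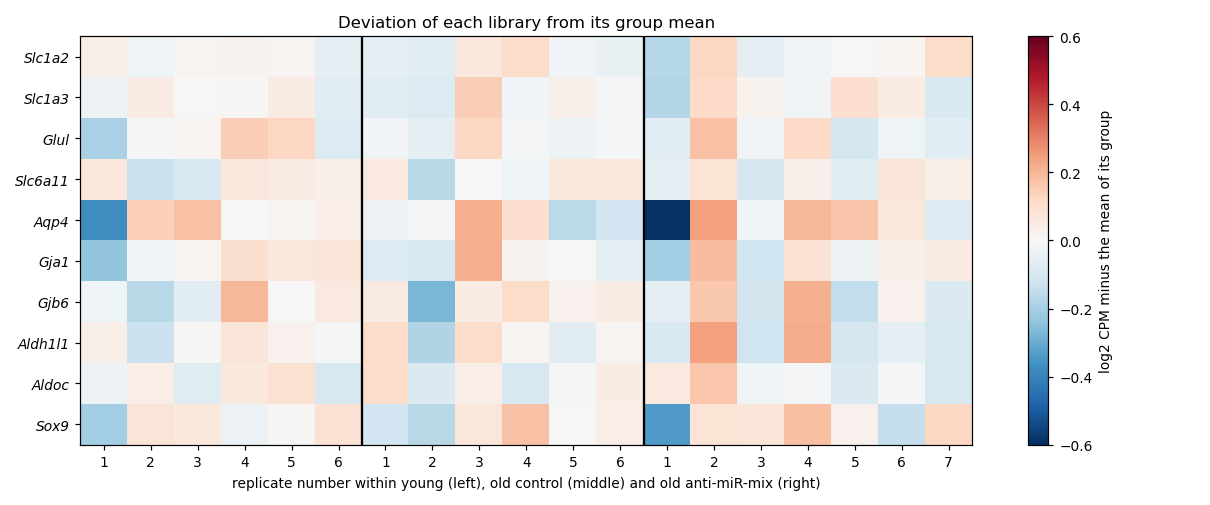
Log2 CPM of each gene minus the mean of its group (colour, red above and blue below) for the 19 libraries, ordered by group and replicate number. Columns of 1 colour, such as old anti-miR-mix replicate 2, the highest library of its group in 8 of 10 genes, show libraries in which most of the genes deviate to the same side, and the darkest cell is the low Aqp4 of old anti-miR-mix replicate 1.

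Over all genes with a mean of at least 100 reads, the 5 whose profile was most like that of the 10 genes, by the mean correlation over the 19 libraries within groups, were Epb41l2 (0.63), Itih3 (0.60), Slc39a12 (0.60), Hspb8 (0.58) and Glud1 (0.58). Glud1 encodes glutamate dehydrogenase and Slc39a12 a zinc transporter. The gene most like a single member was Nbeal1 for Slc1a2 (0.89), Tgfbr1 for Slc1a3 (0.91), Ezr for Glul (0.92) and Wwtr1 for Aqp4 (0.89). It was Abhd5 for Gja1 (0.88), Cbx8 for Gjb6 (0.87), Ctnnal1 for Aldh1l1 (0.90), Fads1 for Aldoc (0.86) and Mdfic for Sox9 (0.90). Each is the highest of the correlations with 12780 genes over the same libraries and is given as a description.

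Markers of other cells moved between the groups in which the genes were compared. The summed CPM of 11 microglial markers was 410 to 544.3 in young, 529.9 to 618.5 in old control and 621.5 to 840.2 in old anti-miR-mix libraries. In edgeR 1 of the 11 rose in old control against young (1.32% of all genes), 6 between the old groups (0.669%) and 10 in old anti-miR-mix against young libraries (4.57%). The 9 oligodendrocyte markers summed to 7371 to 11700, 6506 to 7748 and 6620 to 9790 CPM in the same order, and 5 of the 9 fell in old control against young libraries, as did 1.34% of all genes. The 4 markers of oligodendrocyte precursors summed to 202.2 to 226.2 CPM in young, 170.8 to 191.5 in old control, without overlap with young, and 175.1 to 204.7 in old anti-miR-mix libraries. In edgeR only Gpr17 of the 4 fell in old control against young libraries, as did 1.34% of all genes. The log2 fold changes of the 4 in this comparison ran from -0.91 to 0.05, with a median of 0.00. The 8 neuronal markers summed to 8262 to 8993, 8235 to 9473 and 7972 to 8936 CPM, and the 7 endothelial markers to 137.9 to 156.7, 142 to 155 and 139 to 164.9 CPM, with overlap of all groups. Markers of CA1 pyramidal cells summed to 785.3 to 1105 CPM over all libraries, those of leptomeningeal fibroblasts to 53.65 to 235.2, of dentate granule cells to 32.78 to 96.38, of thalamus to 73.96 to 105.1, of choroid plexus to 14.31 to 104.1 and of ependymal cells to 5.428 to 10.07. Of the defining markers, Folr1 of the choroid plexus and Tmem212 of ependymal cells were at 0 in 2 libraries each. The part of these cell types in the differences of Sox9, Slc1a3 and Gjb6 was not tested.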

How the data were processed

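CA1 RNA libraries of 19 mice (TruSeq, single-end reads of 50 bases) were analysed. Per the labels, the authors used FastQC 0.11.5, STAR 2.5.2b and featureCounts (Subread 1.5.1) with the genome mm10 and deposited raw counts of reads per Ensembl gene, together with a table of log2 values for 18761 genes. The deposited log2 values equalled log2(CPM + 1) minus, per gene, a slope times a whole number from 1 to 4 per library, to within 3.4e-08. This number was treated as a possible batch, and 0 columns were left unassigned. Strand and multi-mapping settings are not given in the sources used here, so overlapping genes can exchange reads.

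Depth was 26653511 to 38908947 reads per library. The filter kept genes that reached 5 reads in 50% or more of the libraries. These were scaled by TMM and entered edgeR 4.0.16 (R 4.3.3, quasi-likelihood, 3 groups in 1 fit, no covariate), with Benjamini-Hochberg adjustment over all 19286 genes tested and a threshold of 0.05. Log2 CPM used a prior count of 2. Alternatives were DESeq2 1.42.0 (the tool of the study), no filter, DESeq2 size factors, a replicate block, the processing number as factor or linear term, old control replicates 5 and 6 as 1 library, limma 3.58.1 on the deposited values, only the groups compared, and each library left out in turn. The scripts were tested on simulated data.

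Lengths, positions and 3′UTRs came from GENCODE M21 (GRCm38), which may not be the release the authors used. Named genes were all 10 members, up to 3 genes of lowest adjusted p per list and comparison among those that passed, the 5 genes most correlated with the members and the single most correlated gene of each member, which is not reported here for Slc6a11. Correlations used genes with a mean of at least 100 reads. The members, lists (glutamate and GABA handling, water, potassium and endfoot, connexins, glycolysis, transcription factors, folate, astrocyte-enriched, reactive astrocyte and cell type markers) and tests were chosen with earlier results of these data known.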

Additional observations from a re-analysis of the deposited data

Results flagged for a closer look

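Among the 30 sets of values formed by 10 genes and 3 groups, 6 had a highest or lowest library far from the nearest other one by Dixon's test at the 95% level, where chance gives about 1 in 20. Aqp4 was low in young replicate 1 (log2 CPM 6.98, the next 7.36) and in old anti-miR-mix replicate 1 (6.96, the next 7.47). Gja1 was low in young replicate 1 (7.76, the next 7.98) and high in old control replicate 3 (8.14, the next 7.95). Glul was high in old control replicate 3 (10.48, the next 10.34). Gjb6 was low in old control replicate 2 (5.34, the next 5.65). Young replicate 1 and old anti-miR-mix replicate 1 are the only libraries of processing number 1 in their groups, so that within these groups the number and the library cannot be told apart. Old control replicates 1 and 2 also carry number 1. Their Aqp4 was 7.39 and 7.41, beside a group median of 7.40. Their Gja1 was 7.84 and 7.83, beside a group median of 7.89, and all other old control libraries were higher. For Gja1 the libraries of number 1 were thus the lowest in every group, unlike for Aqp4.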

How the results depend on the processing

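In old control against young, 514 genes passed with edgeR, 914 with DESeq2, 323 with no filter, 305 with old control replicates 5 and 6 as 1 library and 212 to 691 when 1 library was left out. The count of the 10 members fell from 2 to 1, with Gjb6 lost, with no filter, the processing number as factor or linear term, replicates 5 and 6 as 1 and limma on the deposited values, and was 1 to 2 when 1 library was left out. With DESeq2, which also called Aldoc, it was 3. In old anti-miR-mix against old control the 129 genes became 267 (DESeq2), 249 (replicate block), 9 (processing number as factor), 33 (replicates 5 and 6 as 1), 48 (only the groups compared) and 23 to 247 (1 library left out), with 0 members in each. In old anti-miR-mix against young, 1196 genes became 1520 with DESeq2 and 892 to 1256 when 1 library was left out, and the 2 members became 3 with DESeq2 and with limma on the deposited values, Aldoc being added, and 2 to 3 when 1 library was left out. The cause of these shifts was not tested.

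Among the 10 genes, the signs that changed were those of values near 0. Between the old groups, limma on the deposited values gave 0.0074 for Slc1a2, 0.0025 for Slc6a11 and 0.0051 for Sox9, the processing number as factor gave 0.0099 for Slc6a11, replicates 5 and 6 as 1 gave 0.0011 for Sox9, and Aldoc was -0.0003 with no filter and -0.0041 with only the groups compared. With 1 library left out, the log2 fold changes between the old groups ran from -0.0338 to 0.0124 (Slc1a2), -0.0457 to 0.0003 (Slc6a11), -0.0259 to 0.0261 (Aldoc) and -0.0352 to 0.0462 (Sox9). In old control against young they ran from -0.0284 to 0.0197 (Slc6a11) and -0.0052 to 0.0973 (Aqp4), and in old anti-miR-mix against young from -0.0644 to 0.0116 (Gja1). Of 840 values of the members under all settings, 790 kept their direction and side of the threshold.

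Groups share replicate numbers, but only 3 of 6 same-numbered pairs in each comparison correlated over 0.1. Over the 3 comparisons and 6 numbers, a library correlated best with the one of its own number in 4 of 18 cases. The numbers were therefore not taken to pair the animals. The replicate block gave 651, 249 and 1192 genes and 2, 0 and 2 members. The median of all genes moved by less than 0.01 between scalings.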
